A study of Mus musculus with 4 samples.

Results

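The apolipoproteins examined here are 10 genes whose products coat plasma lipoprotein particles: Apoa1, Apoa2, Apoa4, Apoa5, Apob, Apoc1, Apoc2, Apoc3, Apoe and Apoh. They were measured in the liver of C57BL/6 mouse fetuses on gestation day 17, in 2 wildtype and 2 Sox17+/- biological replicates, each on 1 Affymetrix array. Members were taken by gene symbol, from probe sets that the platform annotation assigns to a single gene, and the brightest of a gene's probe sets by mean signal stood for it. All 10 genes had such a probe set, 16 probe sets in all of 45037 on the array, out of 18193 genes so represented. The fetuses of both genotypes came from matings of C57BL/6 females with Sox17+/- males of that strain, and the liver had been separated from the biliary system before RNA extraction. Sox17 encodes a transcription factor of endoderm, the extrahepatic biliary tract and arterial endothelium. The sources used here do not state which part of Sox17 the mutant allele lacks, or whether a replicate was a single fetus or a pool. P-values therefore measure the spread between these samples, whatever their origin.

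Lipoproteins carry triglyceride and cholesterol esters through the blood inside a shell of phospholipid and apolipoproteins. Apob is the structural protein of the particles that hepatocytes secrete, Apoa1 and Apoa2 are the main proteins of high-density lipoprotein, and the smaller exchangeable members steer the particles toward lipases and receptors. Fetal hepatocytes already secrete these proteins, and the genes are classic targets of the hepatocyte nuclear factor Hnf4a. In RefSeq's gene order Apoa1, Apoc3, Apoa4 and Apoa5 are consecutive protein-coding genes on chromosome 9. Apoc2, Apoc1 and Apoe lie together on chromosome 7 with Apoc4 between the first 2 of them, and Apoa2, Apoh and Apob lie alone on chromosomes 1, 11 and 12.

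RefSeq's table of starts (build GRCm38.p6) held 8 of the 10 genes, 5 of them with a single listed start. The 250 bases before the start are shown for 4 of these 5, because they stand for the patterns described below. Apoa1 and Apoh are among the brightest probe sets of the array. Apob differed between genotypes in opposite directions in the 2 pairs of arrays. Apoa4 is dim and follows Apoa1 on chromosome 9 with Apoc3 between them. Capitals mark matches, on either strand, to any of 4 motifs: CAAAGNNCA (found in HNF4 sites), GTTAATNAT (HNF1), TTNNGCAA (C/EBP) and TATAAA (the TATA box). In this window they occur in 5.49%, 0.737%, 9.56% and 12.4% of 32851 listed promoters, in that order.
Apoa1, chr9:46228380-46228629, + strand: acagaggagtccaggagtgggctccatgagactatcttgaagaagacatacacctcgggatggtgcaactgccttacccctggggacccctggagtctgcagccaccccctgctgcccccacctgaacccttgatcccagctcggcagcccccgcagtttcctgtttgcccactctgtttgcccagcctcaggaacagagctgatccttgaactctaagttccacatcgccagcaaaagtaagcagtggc
Apoh, chr11:108395047-108395296, + strand: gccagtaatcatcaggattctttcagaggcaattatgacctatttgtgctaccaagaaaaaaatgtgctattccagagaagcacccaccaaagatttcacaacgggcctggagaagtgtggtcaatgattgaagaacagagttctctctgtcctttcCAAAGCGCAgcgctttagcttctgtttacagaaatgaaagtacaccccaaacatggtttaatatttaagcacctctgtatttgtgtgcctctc
Apob, chr12:7977427-7977676, + strand: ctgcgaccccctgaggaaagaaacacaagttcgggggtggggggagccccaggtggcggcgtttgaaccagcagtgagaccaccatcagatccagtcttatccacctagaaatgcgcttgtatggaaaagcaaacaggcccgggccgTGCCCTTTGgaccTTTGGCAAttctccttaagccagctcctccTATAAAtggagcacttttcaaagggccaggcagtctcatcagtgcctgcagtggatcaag
Apoa4, chr9:46240594-46240843, + strand: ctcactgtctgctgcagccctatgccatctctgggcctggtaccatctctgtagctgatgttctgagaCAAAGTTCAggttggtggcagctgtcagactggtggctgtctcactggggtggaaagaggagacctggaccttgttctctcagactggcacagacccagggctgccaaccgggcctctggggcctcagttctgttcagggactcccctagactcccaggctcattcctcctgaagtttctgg
The Apob window held 1 match to the HNF4 motif on the opposite strand, 1 to the C/EBP motif and 1 TATA box, and the matches do not overlap. The Apoh and Apoa4 windows each held 1 match to the HNF4 motif and none to the others. None of the 4 motifs matched in the windows of Apoa1 and Apoc2. A match is a description of letters and does not show that a factor binds. Equally, the lack of a match to these fixed patterns does not show that a window has no site.

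Signals had been scaled by the submitters to a mean of 500 on each array once the lowest and highest 2% were set aside, and array medians lay between 84.7 and 103. Differences between genotypes are given as Sox17+/- minus wildtype on the scale log2(signal + 16), which understates the difference of dim genes. The fit was made with limma over the brighter 50% of probe sets (22519), with Benjamini-Hochberg adjustment over all of them. Sox17 itself was read on the brighter of its 2 probe sets, and the other is not reported here. The brighter one had signals of 244 and 264 on the wildtype arrays and 139 and 124 on the Sox17+/- arrays. The groups thus did not overlap, and 18.6% of the tested genes likewise lay lower on both Sox17+/- arrays. Its log2 difference was -0.87 (limma, unadjusted p = 0.00698, adjusted p = 0.9999). No source used here says whether the brighter probe set reads the altered region of Sox17. The array names in the labels carry a code shared by same-numbered arrays, and the difference within each same-numbered pair is therefore given beside each fitted difference.

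No apolipoprotein differed between genotypes by limma, and 0% of all probe sets tested passed in either direction at an adjusted p under 0.05. At an unadjusted p under 0.05, 4.10% of all tested probe sets differed and 0 of the 9 apolipoproteins that passed the filter on dim probe sets. The adjusted p-value was 0.9999 for each of those 9. Over all 10 genes, Apoa4 included, the median log2 difference was -0.07. Over the 9 tested it was -0.10, beside -0.02 over all 11691 tested genes. Within pairs, 6 of the 10 were lower in Sox17+/- liver in both pairs (Apoa1, Apoa2, Apoc1, Apoc2, Apoe and Apoh), 1 was higher in both (Apoc3) and 3 went in opposite directions (Apoa4, Apoa5 and Apob). The background shares were 32.2% lower and 25.5% higher in both pairs among the tested genes, and 31.0% and 23.5% among all 18193 genes, dim ones included. These counts were also taken under 2 other scalings. With quantile normalization 5 of the 10 were lower in both pairs (Apoa2, Apoc1, Apoc2, Apoe and Apoh) and Apoc3 was higher, beside 32.0% and 26.4% of the tested genes. Centring each array on its median adds 1 constant per pair to every gene, -0.11 in pair 1 and 0.20 in pair 2. The latter is larger than any of the 6 genes' differences in pair 2, so that 0 of the 10 were then lower in both pairs, beside 17.8% of the tested genes, and Apoc3 was higher in both, beside 26.4%. On the brightest probe set, the wildtype and Sox17+/- signals overlapped for every one of the 10 genes. Among all tested genes, both Sox17+/- arrays lay above both wildtype arrays for 14.5% and below them for 18.6%. Overlap was the rule among bright genes: it was seen in 99 of the 100 brightest genes outside the 10.

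**Figure D1:**
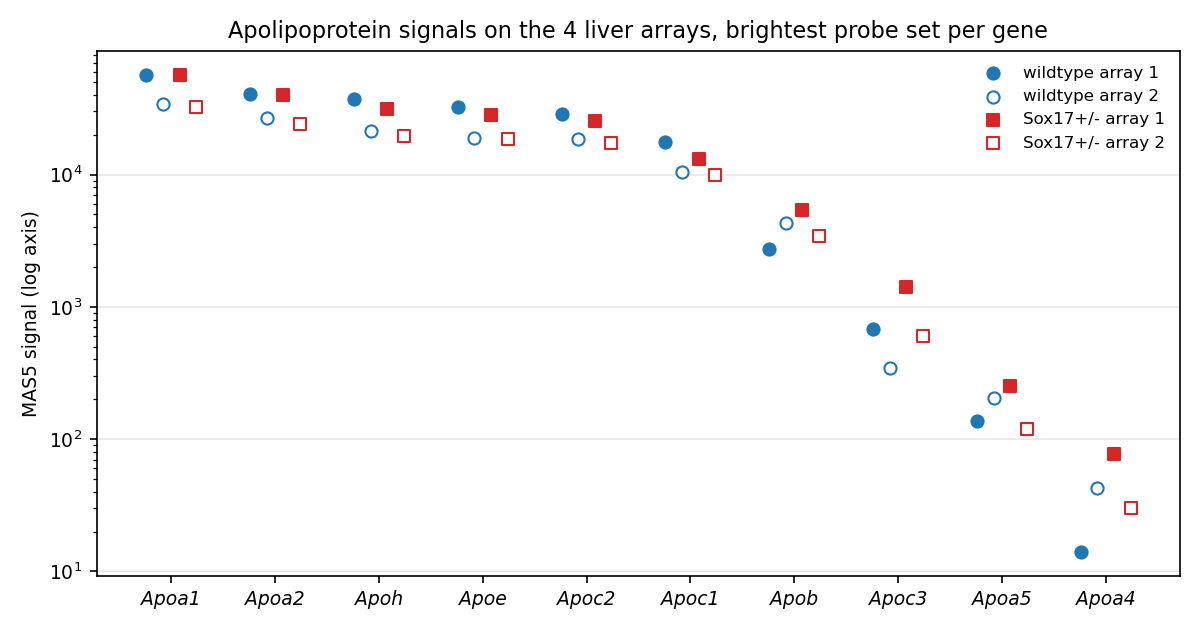
MAS5 signal (log axis) of the brightest probe set of each apolipoprotein on the 4 arrays, with wildtype as circles, Sox17+/- as squares, arrays numbered 1 filled and arrays numbered 2 open. For Apoa1, Apoa2, Apoh, Apoe, Apoc2 and Apoc1 the filled points of both genotypes lie above the open points, and for every gene the genotypes overlap.

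The structural proteins of high-density lipoprotein were read near the top of the array's range and differed little between same-numbered arrays. Small differences between genotypes were usual at that brightness. The median absolute log2 difference was 0.0689 over 108 tested genes from 20000 upward, beside 0.131 over 1463 genes between 2000 and 5000. Apoa1, which activates the cholesterol-esterifying enzyme Lcat, had signals of 56988 and 34104 on wildtype arrays 1 and 2 and of 56860 and 32468 on Sox17+/- arrays 1 and 2. The arrays numbered 1 were high and those numbered 2 low in both genotypes, and the same-numbered arrays differed little. Its means were 45546 ± 16182 in wildtype and 44664 ± 17248 in Sox17+/- liver (mean ± SD, n = 2 each), a log2 difference of -0.04 (SE 0.39, limma). The 95% interval of that difference ran from 0.491-fold to 1.94-fold, so a difference within those bounds could not be told from none.

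Apoa1 was read by 3 further probe sets, which give a check on whether the brightest was held at the top of the range. Their mean signals over the 4 arrays were 37212, 35477 and 33796, and their log2 differences were -0.03, 0.00 and -0.05. The direction within pairs was not the same on all 4: the brightest was lower in Sox17+/- liver in both pairs, and each of the others was higher in pair 1 (by 0.02 to 0.06) and lower in pair 2 (by -0.12 to -0.06). All 4 lay above the 99.9 percentile of brightness, so none of them samples a dimmer part of the range.

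Apoa2, the second protein of high-density lipoprotein, had signals of 40775 and 26958 on the wildtype arrays and of 39641 and 24076 on the Sox17+/- arrays. It was lower in Sox17+/- liver by -0.04 in pair 1 and -0.16 in pair 2, against a difference of -0.60 between the wildtype arrays. The fitted log2 difference was -0.10 (SE 0.35, limma unadjusted p = 0.781).

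Apoh, or beta-2-glycoprotein I, is a phospholipid-binding plasma protein that also circulates with lipoproteins. Its brightest probe set had signals of 37537 and 21242 in wildtype and of 31588 and 19490 in Sox17+/- liver, lower by -0.25 and -0.12 within pairs (fitted log2 difference -0.19, SE 0.39, limma). A second, much dimmer probe set of Apoh gave 194 and 194 in wildtype and 185 and 131 in Sox17+/- liver. On it both Sox17+/- arrays lay below both wildtype arrays, as for 18.6% of the tested genes. Its log2 difference was -0.29 (SE 0.24, limma unadjusted p = 0.277), and the arrays numbered 2 were not lower than those numbered 1 in wildtype. Both probe sets thus had the same sign in both pairs on the deposited scale, and neither passed. With each array centred on its median, the brighter one differed by -0.36 in pair 1 and 0.08 in pair 2.

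The exchangeable apolipoproteins of the chromosome 7 cluster had the same shape. Apoe, the ligand by which remnant particles are taken up through cell-surface receptors, had signals of 32181 and 19008 in wildtype and of 28251 and 18523 in Sox17+/- liver. Apoc1, which inhibits lipoprotein uptake and lipid transfer, had 17781 and 10499 against 13176 and 9939. Apoc2, the cofactor without which lipoprotein lipase is inactive, had 28594 and 18512 against 25280 and 17363. In each of the 3 genes wildtype array 1 was highest, Sox17+/- array 1 came next, and the 2 arrays numbered 2 were lowest and close together.

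The differences in these 3 genes were small beside the spread between arrays. For Apoe the log2 difference was -0.19 in pair 1 and -0.04 in pair 2 (fitted -0.11, SE 0.36, limma). For Apoc1 it was -0.43 and -0.08 (fitted -0.26, SE 0.33), the largest of the 6 bright members, with a 95% interval from 0.469-fold to 1.496-fold. For Apoc2 it was -0.18 and -0.09 (fitted -0.14, SE 0.32). Set against Apoe on the same array, Apoc2 differed between genotypes by 0.01 in pair 1 and -0.06 in pair 2, and Apoc1 by -0.24 and -0.04, so Apoc1 was lower relative to its neighbour mainly in pair 1. Their neighbour Apoc4, a minor apolipoprotein outside the 10, had 11057 and 5607 against 8246 and 5639.

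**Figure D2:**
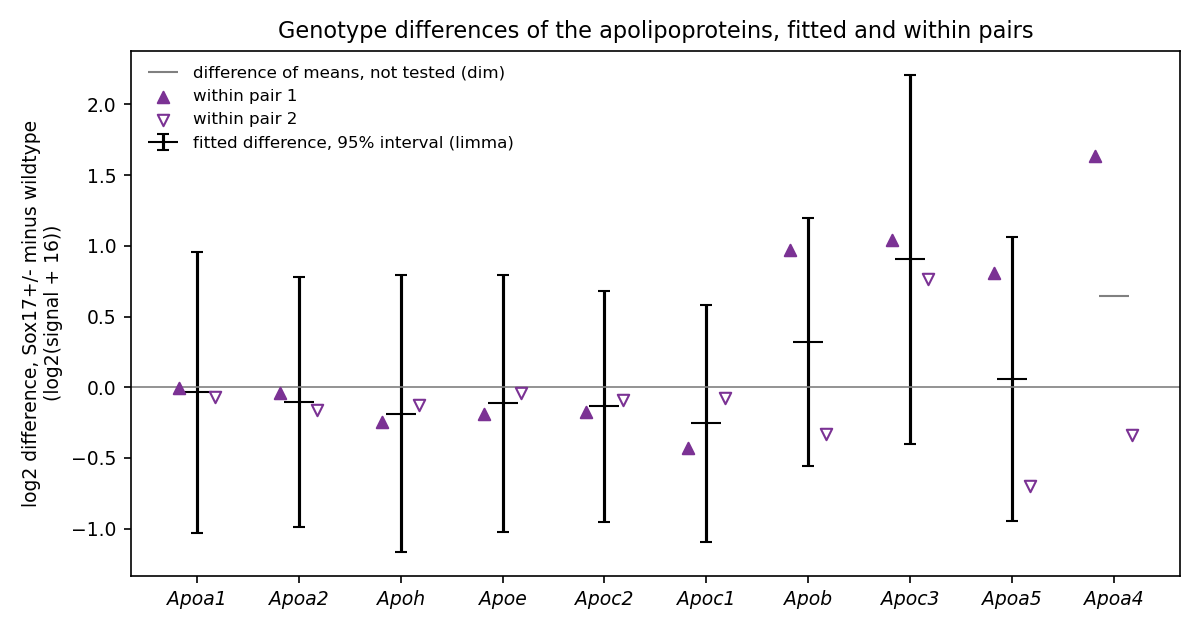
Log2 difference, Sox17+/- minus wildtype, on the scale log2(signal + 16): black bars are the fitted difference with its 95% interval from limma, triangles the differences within the pairs of same-numbered arrays, and the grey bar marks Apoa4, which was not tested. Apoc3 has both triangles above 0 (1.04 and 0.77), while Apob and Apoa5 have them on opposite sides of 0, and every interval includes 0.

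For the 6 bright genes the number of the array went with the signal more than the genotype did. The array numbered 2 was lower than the array numbered 1 in both genotypes for all 6, by -0.82 to -0.41 on the log2 scale, with medians of -0.75 in wildtype and -0.65 in Sox17+/- liver. The same held for other bright genes: of the 100 brightest genes outside the 10, 99 were lower on array 2 in both genotypes, with medians of -0.47 and -0.62. It did not hold at moderate brightness, where the median over 1463 genes with mean signals between 2000 and 5000 was -0.03 in wildtype and -0.01 in Sox17+/- liver. Of the 347 tested genes with a mean signal of at least 10000, 30.3% were lower in Sox17+/- liver within both pairs, and for 26.2% both were higher. The part of the array number in the differences between genotypes was not tested beyond the values within pairs.

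**Figure D3:**
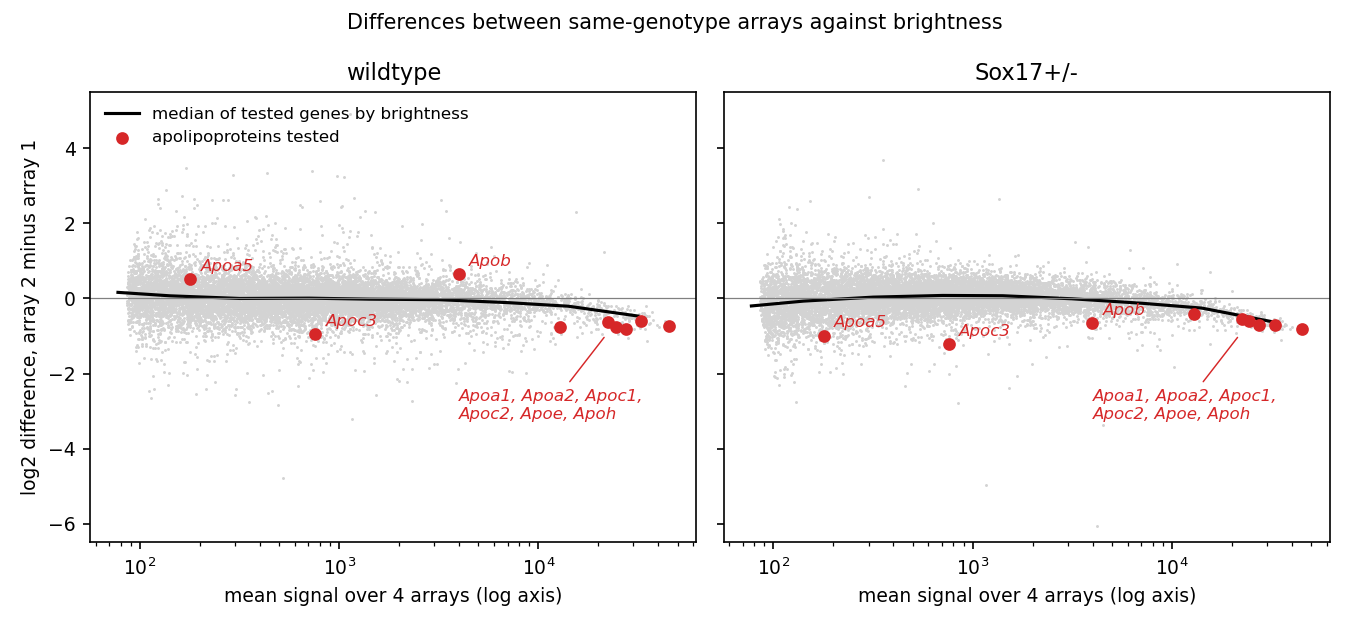
Log2 difference between the 2 arrays of a genotype (array 2 minus array 1) against mean signal (log axis) for the 11691 tested genes in grey, with their median by brightness as a black line and the 9 tested apolipoproteins in red. The black line starts at 0.16 in wildtype and -0.20 in Sox17+/- liver among genes with mean signals under 100, runs near 0 at moderate brightness and ends at -0.47 and -0.62 from 20000 upward. The 6 bright apolipoproteins lie between -0.82 and -0.41, and Apoc3 lies under the line in both genotypes.

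Apoc3 was the apolipoprotein with the largest difference among those tested. It encodes an inhibitor of lipoprotein lipase and of remnant uptake that raises plasma triglyceride. Its signals were 678 and 345 on the wildtype arrays and 1414 and 598 on the Sox17+/- arrays, with means of 511 ± 236 and 1006 ± 577 (mean ± SD, n = 2 each). Sox17+/- array 1 was the highest and wildtype array 2 the lowest, and Sox17+/- array 2 lay below wildtype array 1, so the groups overlapped. Within pairs Apoc3 was higher by 1.04 and 0.77 on the log2 scale.

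The fitted log2 difference of Apoc3 was 0.91 (SE 0.51), or 1.87-fold with a 95% interval from 0.758-fold to 4.63-fold (limma, unadjusted p = 0.136, adjusted p = 0.9999). Differences at least as large as its smaller pair difference were seen in both pairs for 71 of 11691 tested genes, or 0.607%. The value rested on the arrays: it was 0.30 without Sox17+/- array 1 and 1.52 without Sox17+/- array 2, in each of which the array numbers are no longer balanced between genotypes. Apoc3 had a single probe set, so no second reading of it was available here.

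Apob, the non-exchangeable scaffold of very-low-density and low-density lipoprotein, had signals of 2747 and 4324 in wildtype and of 5396 and 3430 in Sox17+/- liver. It was highest on Sox17+/- array 1 and lowest on wildtype array 1, with the arrays numbered 2 between them. Within pairs it was higher by 0.97 and lower by -0.33 (fitted log2 difference 0.32, SE 0.35, limma unadjusted p = 0.396). Its second, dimmer probe set, with 62.2 and 199 against 167 and 164, repeated both signs at 1.23 and -0.26. Both probe sets thus had opposite directions in the 2 pairs, and without wildtype array 1 the fitted difference of the brighter one was -0.01.

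Apoa5, a minor particle component that enhances triglyceride hydrolysis, had the same alternation at a much dimmer probe set. Its signals were 138 and 204 in wildtype and 254 and 120 in Sox17+/- liver, higher by 0.81 in pair 1 and lower by -0.69 in pair 2 (fitted log2 difference 0.06, SE 0.40, limma). In both Apob and Apoa5 wildtype array 2 exceeded wildtype array 1, contrary to the 6 bright genes. Apoa4, which in adult mice is made mainly by intestine and by fasting or steatotic liver, was near the bottom of the array. Its signals were 14.1 and 42.7 in wildtype and 77.4 and 30.3 in Sox17+/- liver on the brighter of 2 probe sets, and between 4.93 and 13.0 on the other. It did not pass the filter on dim probe sets and was not tested.

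The 4 genes of the chromosome 9 cluster thus had unlike profiles over the same 4 arrays. Apoa1 was high on both arrays numbered 1. Apoc3 was higher on array 1 than on array 2 in each genotype and higher in Sox17+/- liver within each pair, with groups that overlapped and no call. Apoa5 and Apoa4 shared their highest array, Sox17+/- array 1, but not their lowest. Outside the 10, the genes whose centred log2 values lay nearest to the median profile of the 10 apolipoproteins, over 4 arrays, were Prss8, Rps29, Ttr, Sil1 and Slc25a39, at Euclidean distances between 0.0621 and 0.0786. Of the apolipoproteins themselves Apoa2 was nearest (0.0739), between Ttr and Sil1, while Apob, Apoc3 and Apoa4 were farthest (0.974, 1.06 and 1.34). Many profiles can be alike over 4 arrays, and the likeness is a description.

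Defining hepatocyte markers were bright in both genotypes. The summed signal of 9 of 10 listed hepatocyte markers was 307727 and 186868 in wildtype and 292743 and 179156 in Sox17+/- liver, against 217434 and 135238, and 201936 and 126037, for the 10 apolipoproteins. Alb and Afp, the main plasma proteins of fetal hepatocytes, had log2 differences of -0.00 and -0.05. Both sums moved with the array number and, on the deposited scale, were lower in Sox17+/- liver in both pairs. The single hepatocyte markers did not share that direction. Of the 9, 2 were lower in both pairs, 1 was higher and 6 went in opposite directions. Among the tested genes 32.2% were lower and 25.5% higher in both. The part of hepatocyte content in the apolipoprotein signals was not tested. In bulk liver, fewer hepatocytes and less RNA per hepatocyte cannot be told apart.

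Markers of other cells that could carry apolipoprotein RNA were also read. Macrophages make Apoe, and the summed signal of the 7 listed macrophage markers was 20606 and 16920 in wildtype and 20802 and 18200 in Sox17+/- liver. Single macrophage markers differed more than their sum: 3 were higher and 3 lower in both pairs, beside 25.5% and 32.2% of the tested genes, and 2 of the 7 had an unadjusted p under 0.05, beside 4.10% of the tested probe sets. Named after their values had been seen, Marco, a scavenger receptor, had signals of 2257 and 1738 against 5024 and 3274 (log2 difference 1.03, limma unadjusted p = 0.0164). Vsig4, a complement receptor of Kupffer cells, had 811 and 364 against 130 and 194 (-1.68, limma unadjusted p = 0.0102), and Clec4f, a Kupffer cell lectin, had 1097 and 584 against 487 and 402 (-0.83, limma unadjusted p = 0.0590). None of these 3 overlapped between genotypes and none passed after adjustment. Among all tested genes, both Sox17+/- arrays lay above both wildtype arrays for 14.5% and below them for 18.6%. Intestinal epithelium makes Apoa4, Apob and Apoa1, but of its 6 markers only 2 passed the filter on dim probe sets. All 6 together summed to 626 and 573 in wildtype and 492 and 406 in Sox17+/- liver, lower in both pairs. Sums were 59335 and 48868 against 60236 and 48082 for 4 erythroid markers, 6884 and 5369 against 6928 and 6862 for 6 endothelial markers, 420 and 418 against 562 and 348 for 4 biliary markers, and 441 and 560 against 364 and 334 for 4 exocrine pancreas markers. The filter on dim probe sets was passed by 3 of the 4 erythroid and all 6 endothelial markers. It was passed by 3 of the 4 biliary and 2 of the 4 exocrine pancreas markers. Sums that rest on dim markers do not show whether those cells were present. The part of these cells in the apolipoprotein signals was not tested.

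Genes that load lipid onto Apob and release the particles did not pass the test. Of 11 tested assembly genes, 0 passed by limma and 0 had an unadjusted p under 0.05. Within pairs 6 were lower and 0 higher in both, beside 32.2% and 25.5% of the tested genes, and their median log2 difference was -0.20. Counts within pairs for the gene lists were taken on the deposited scale only. Centring each array on its median adds 0.202 in pair 2. The largest difference of these 6 in pair 2 was -0.196 (Pla2g12b), so with that centring the 6 would not be lower in both pairs. Under it 17.8% of all tested genes were lower in both. Mttp, the transfer protein that lipidates Apob, had signals of 2378 and 1818 in wildtype and of 1689 and 1872 in Sox17+/- liver. Dgat2, which makes triglyceride for secretion, had 6242 and 4255 against 4979 and 4019. Apobec1, the enzyme that edits Apob messenger RNA, had 229 and 219 against 163 and 203. Both its Sox17+/- arrays lay below both wildtype arrays, as for 18.6% of the tested genes. The last 2 were lower in both pairs, whereas Mttp was lower in pair 1 and close to equal in pair 2.

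The receptors that clear lipoproteins went both ways. Of 11 tested, 0 passed by limma after adjustment, while 5 were higher and 5 lower in both pairs, beside 25.5% and 32.2% of the tested genes, with a median log2 difference of 0.03. At an unadjusted p under 0.05, 3 receptor genes were higher, Vldlr, Lrp8 and Gpihbp1, named after their values had been seen, beside 4.10% of the tested probe sets in either direction. Vldlr, the very-low-density lipoprotein receptor, was read on the brightest of its 6 probe sets, and the others are not reported here. It had signals of 495 and 214 in wildtype and of 1547 and 1058 in Sox17+/- liver, and so did not overlap between genotypes. Its log2 difference was 1.92 (SE 0.44), or 3.78-fold with a 95% interval from 1.75-fold to 8.17-fold before adjustment (limma, unadjusted p = 0.00648, adjusted p = 0.9999).

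Lrp8, a receptor for Apoe, had 159 and 206 against 309 and 307 (log2 difference 0.72). Gpihbp1, which anchors lipoprotein lipase to capillary endothelium, had 561 and 418 against 1025 and 684 (0.77). All 3, chosen by their p-value, had both Sox17+/- arrays above both wildtype arrays, as did 14.5% of the tested genes. Scarb1, the high-density lipoprotein receptor, had 2825 and 3108 against 2537 and 2773, and Lrp1, a remnant receptor, had 726 and 771 against 606 and 689. These last 2, with log2 differences of -0.16 and -0.21, lay lower on both Sox17+/- arrays, as did 18.6% of the tested genes.

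Of 13 tested genes for lipases, lipid transfer and particle remodelling, 0 passed by limma and 1 had an unadjusted p under 0.05 (beside 4.10% of the tested probe sets). In both pairs 3 were higher and 5 lower, beside 25.5% and 32.2% of the tested genes, with a median log2 difference of -0.01. Lcat, the plasma enzyme that Apoa1 activates, had signals of 3176 and 2144 in wildtype and of 2077 and 1952 in Sox17+/- liver (log2 difference -0.37). Pon1, an esterase carried on high-density lipoprotein, had 2129 and 780 against 543 and 753, so its log2 difference of -0.99 came from pair 1 (-1.94) rather than pair 2 (-0.05). Lpl, the lipase that Apoc2 activates and Apoc3 inhibits, had 15341 and 12424 against 12363 and 11553.

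On the higher side, Abca1, the exporter that lipidates Apoa1, had 7417 and 6991 against 7993 and 8479, and Abcg1, a cholesterol exporter to high-density lipoprotein named after its values had been seen, had 527 and 616 against 821 and 904 (log2 difference 0.58, limma unadjusted p = 0.0373). Both exporters were higher on both Sox17+/- arrays, as were 14.5% of the tested genes. Pltp, the phospholipid transfer protein, differed by -0.08 and Angptl4, an inhibitor of lipoprotein lipase, by -0.01.

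Of 8 tested genes among other apolipoproteins and acute-phase lipoprotein proteins, 0 passed by limma and 1 had an unadjusted p under 0.05 (beside 4.10% of the tested probe sets). In both pairs 4 were lower and 0 higher, beside 32.2% and 25.5% of the tested genes, with a median log2 difference of -0.19. Apom, a lipocalin of high-density lipoprotein, had signals of 24517 and 16890 in wildtype and of 22064 and 14875 in Sox17+/- liver. Clu, also known as apolipoprotein J, had 4978 and 3145 against 4271 and 2983. Apon, named after its values had been seen, had 313 and 192 against 122 and 123, with a log2 difference of -0.92 (limma unadjusted p = 0.0214, adjusted p = 0.9999). Apom and Clu followed the array number as the 6 bright apolipoproteins did. For Apon both Sox17+/- arrays lay below both wildtype arrays, as for 18.6% of the tested genes.

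Of 16 tested regulators of these genes, 0 passed by limma and 0 had an unadjusted p under 0.05, and 8 were lower and 2 higher in both pairs, beside 32.2% and 25.5% of the tested genes, with a median log2 difference of -0.15. Hnf4a had signals of 3924 and 2641 in wildtype and of 2867 and 2687 in Sox17+/- liver, lower by -0.45 in pair 1 and higher by 0.02 in pair 2. Creb3l3, a membrane-bound activator of Apoa4, Apoa5 and Apoc2, had 1662 and 1075 against 1643 and 745. Ppara, the fatty acid receptor that represses Apoc3, had 968 and 704 against 819 and 605, and Nr1h3, the oxysterol receptor LXR alpha, had 376 and 409 against 370 and 324. Ppara and Nr1h3 were lower in both pairs, by -0.24 and -0.21 and by -0.02 and -0.32.

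**Figure D4:**
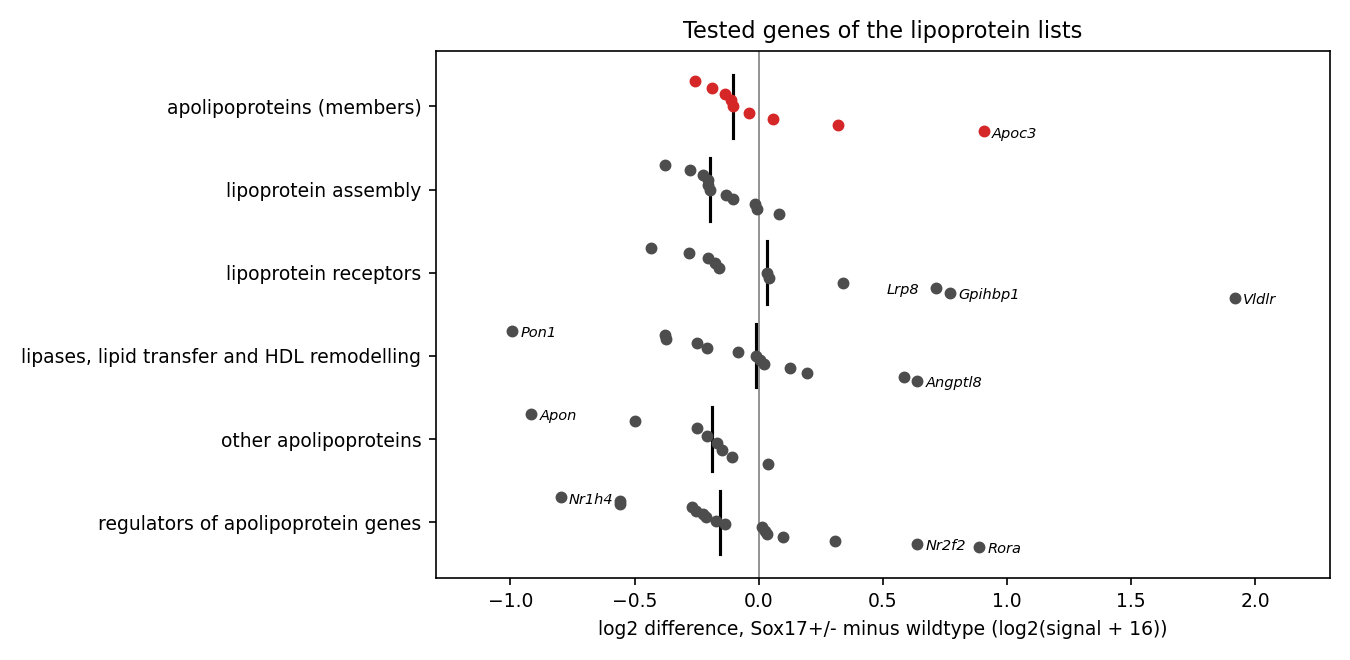
Log2 difference, Sox17+/- minus wildtype, of each tested gene (points) on the scale log2(signal + 16), by list, with the list's median as a black line. The apolipoproteins lie between -0.26 and 0.32 apart from Apoc3 at 0.91, and Vldlr at 1.92 is the farthest point from 0 among the lists.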

How the data were processed

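Liver RNA of 2 wildtype and 2 Sox17+/- fetuses or pools was measured on 4 single-colour arrays. The deposited intensity values, 1 per probe set and linear in scale, come from MAS5 according to the submitters' processing notes. Each array had been scaled on its own, so a difference in total RNA is removed, and the number of arrays limits the precision. Of 45101 probe sets 64 controls were left out. Of the rest, 34945 had 1 gene symbol, 932 several and 9160 none, and only the first were named.

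Signals were taken as log2(signal + 16). Probe sets in the brighter 50% by mean log2 value were fitted with limma 3.58.1 in R 4.3.3 (genotype as the only term, two-sided), with Benjamini-Hochberg adjustment over 22519 probe sets. An exact permutation test of 2 against 2 arrays cannot give a two-sided p below 0.333 and was not used. The code was tested on simulated data. The brightest probe set stood for a gene.

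The genes named were the 10 apolipoproteins, Sox17, lipoprotein, regulator and hepatocyte genes listed by name, and the 5 nearest profiles. Some genes of the naming rule are not reported here. Members and lists were chosen with earlier results of these data known. Alternatives were other pseudocounts, filters, normalizations, probe sets and priors, a replicate block, and leaving out each array.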

Additional observations from a re-analysis of the deposited data

How the results depend on the processing

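In each alternative fitted, 0 of the tested apolipoproteins passed, and no value of Apoc3 changed sign. The count of probe sets passing was 0, and became 5 with median centring (Esm1, Hspa1a and Hspa1b) and 3 with a trended, robust prior (Hspa1a and Hspa1b); leaving out any array gave 0. The count of apolipoproteins lower in both pairs went from 6 to 0 with median centring, and was 5 with quantile normalization. Apoa1 changed sign with median centring (0.0097) and with quantile normalization (0.038). When an array was left out, which leaves the array numbers unbalanced, the median over the 10 genes ranged from -0.43 to 0.31. For single genes the range was -0.44 to 0.37 for Apoa1, -0.46 to 0.26 for Apoa2, -0.44 to 0.55 for Apoa5, -0.0073 to 0.64 for Apob, -0.64 to 0.12 for Apoc1, -0.45 to 0.18 for Apoc2, -0.49 to 0.27 for Apoe, -0.60 to 0.22 for Apoh, 0.30 to 1.52 for Apoc3 and 0.14 to 1.15 for Apoa4. The unadjusted p of Apoc3 was 0.0403 without wildtype array 1 and 0.0271 without Sox17+/- array 2. The cause of these changes was not tested. Counts of genes by pair cannot be had with an array left out.

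Deviations from the genotype mean correlated between arrays of the same number (r = 0.383 over 22519 probe sets), with 2 pairs only. With the replicate block, 0 probe sets passed and 1693 had an unadjusted p under 0.05, against 923 without the block; the median difference of the apolipoproteins was -0.07 in both, 6 were lower and 1 higher in both pairs in both, and Apoc3 had an unadjusted p of 0.00625 (adjusted p = 0.625, limma).

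The 6 brightest members lay at the 98.9 percentile of mean brightness or above, so that only Apoh offered a dim second probe set to set beside a bright one.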
